A study of Mus musculus with 6 samples.

Results

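Imprinted genes, which are transcribed mainly or wholly from the copy inherited from 1 parent, are described here in mouse embryonic stem cells held at opposite settings of the Wnt pathway. The members were a named list of 40 genes, and each was represented by the probe set of highest mean among those that the platform annotation assigns to that gene alone. Of the 40 genes, 35 had such a probe set among the 19937 genes tested. The probe sets of Snrpn, Ube3a and Gnas list several genes and were not used, and no probe set was listed here for H19 and Zrsr1.

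The cells were a V6.5 embryonic stem cell line whose endogenous Ctnnb1 gene, encoding β-catenin, carries a biotin-acceptor and triple FLAG tag, and which also expresses the biotin ligase BirA. All cells were grown in serum with the cytokine LIF and maintained with feeder cells isolated from DR4 mice. For 24 h, 3 samples received CHIR99021, a GSK3 inhibitor that stabilises β-catenin, at 3 µM, and 3 received XAV939, a tankyrase inhibitor that lowers β-catenin, at 3 µM per the sample labels and 1 µM per the treatment protocol. No untreated arrays were analysed here, so a difference cannot be assigned to either compound, and every array carries the same tagged line. The labels did not state whether the replicates came from separate cultures, and p-values then measure only the spread between these arrays.

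In imprinted loci, methylation set in the egg or sperm at an imprinting control region leaves the parental copies with different activity, and neighbouring genes of a cluster are often expressed from opposite parental copies. Paternally expressed genes such as Igf2 and Peg3 include many that promote fetal growth, and maternally expressed genes such as Cdkn1c and Grb10 include many that restrain it. In embryonic stem cells the marks are maintained through the division of the cells by Zfp57, Trim28 and the maintenance methyltransferase Dnmt1. The parental assignments used below are textbook knowledge, some of it from placenta or brain, and the arrays measured the summed transcript of both copies, so parental expression itself was not measured.

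This list and the further lists below were chosen with earlier results of these data known. Their shares therefore describe the listed genes and do not test them against other genes. Between the treatments, 11 of the 35 measured imprinted genes had an adjusted p under 0.05 (limma), which is 31.4%. CHIR99021 samples were higher for 6 of them and lower for 5. Over all genes tested the share was 9.65%, with 5.31% higher and 4.34% lower. Among genes with a mean log2 level of at least 5.68, the median of all probe sets, the share was 15.3%, with 8.54% higher and 6.78% lower. Of the measured imprinted genes 28 reached that level, including all 11 that passed (39.3%). The genes that rose were Plagl1, Peg10, Igf2, Peg3, Sgce and Cd81, and those that fell were Cdkn1c, Grb10, Meg3, Impact and Mest. The median log2 difference of the 35 genes, CHIR99021 minus XAV939 throughout, was 0.012 against 0.0066 over all genes, and the median absolute difference was 0.156 against 0.0624 over all genes and 0.0872 over genes at or above the median level. For 19 of the 35 genes (54.3%) every array of one treatment lay above every array of the other. The share was 25.1% of all genes and 33.9% of genes at or above the median level.

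**Figure D1:**
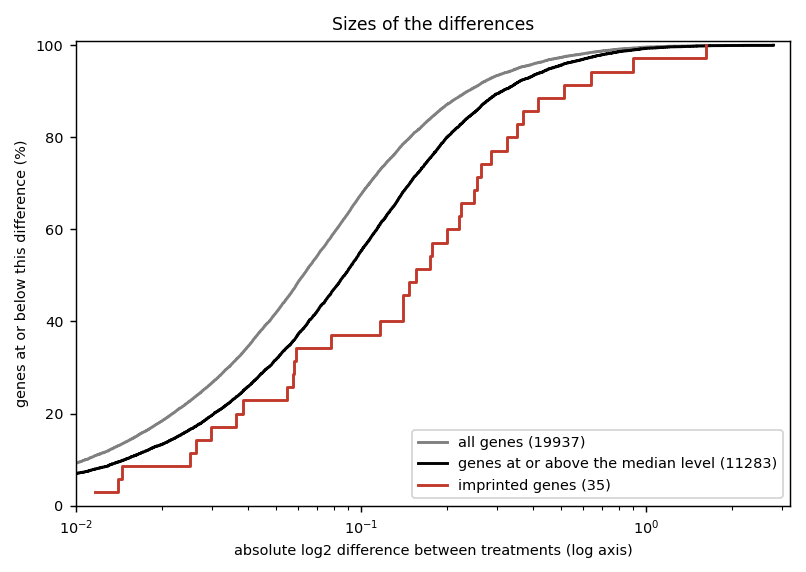
Cumulative share of genes, in percent, against the absolute log2 difference between the treatments on a log axis. The curve of the 35 imprinted genes lies to the right of those of all 19937 genes and of the 11283 genes at or above the median level over most of its length, with medians of 0.156, 0.0624 and 0.0872. The list was chosen with earlier results of these data known.

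By expressed copy, 7 of 17 measured paternally expressed genes passed (41.2%), 5 higher and 2 lower, with a median difference of -0.036. Of 18 measured maternally expressed genes, 4 passed (22.2%), 1 higher and 3 lower, with a median of 0.020. These shares stand against 9.65% of all genes and 15.3% of genes at or above the median level. Both medians lay near that of all genes, and no difference between the parental classes was tested. The plot of differences by cluster shows that the rises past the threshold lay in the Plagl1, Igf2, Peg3, Peg10 and Kcnq1 clusters.

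**Figure D2:**
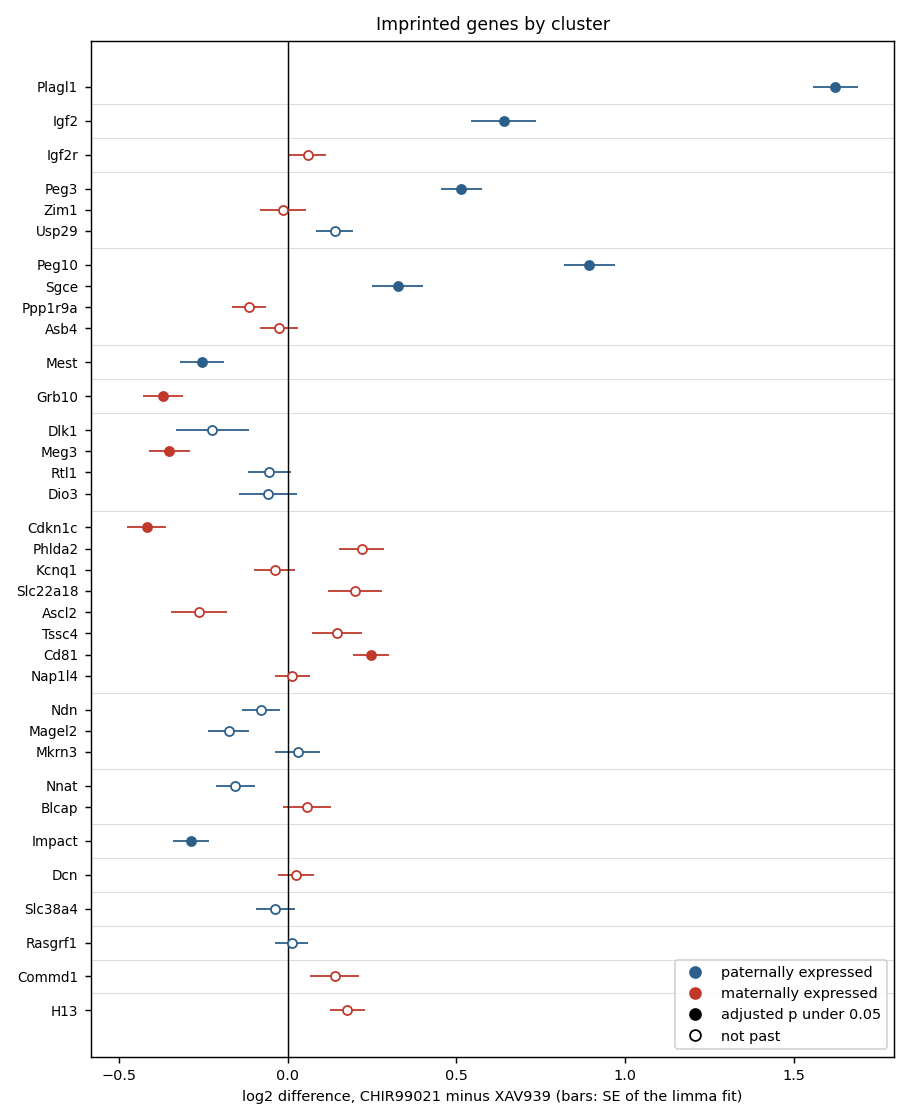
Log2 difference, CHIR99021 minus XAV939, of each of the 35 measured imprinted genes on the horizontal axis, with bars for its standard error (limma, n = 3 arrays for each compound). Genes are grouped by cluster and coloured by expressed parental copy, filled points passed an adjusted p of 0.05, and Plagl1 at 1.62 lies farthest from 0.

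Promoter windows of 6 of the 11 genes that passed are printed here. Those of Plagl1, Igf2, Mest, Grb10 and Meg3 were picked because they hold the hexamer marked below. Where several windows of a gene held it, the one with the lowest start is shown. Cd81 also passed, and its window, which lacks the hexamer, is not shown. Windows of Igf2, Mest, Grb10 and Meg3 that lack it are not shown either. Each runs from 250 bases before to 50 bases after an annotated start, from RefSeq on the build GRCm38.p6, 5′ to 3′ on the gene's own strand. Capitals mark TGCCGC or its reverse complement GCGGCA, the hexamer that Zfp57 is known to bind when methylated. The windows were not chosen as imprinting control regions, and binding of Zfp57 was not measured. Plagl1 lies at chr10:13090582-13090881 (plus strand), Igf2 at chr7:142661222-142661521 (minus strand, 1 of its 4 windows), Mest at chr6:30737800-30738099 (plus strand), Grb10 at chr11:12037371-12037670 (minus strand), Meg3 at chr12:109540746-109541045 (plus strand) and Peg3 at chr7:6730370-6730669 (minus strand). The Peg3 window does not hold the hexamer and is shown because it overlaps that of a neighbouring gene described below.
Plagl1: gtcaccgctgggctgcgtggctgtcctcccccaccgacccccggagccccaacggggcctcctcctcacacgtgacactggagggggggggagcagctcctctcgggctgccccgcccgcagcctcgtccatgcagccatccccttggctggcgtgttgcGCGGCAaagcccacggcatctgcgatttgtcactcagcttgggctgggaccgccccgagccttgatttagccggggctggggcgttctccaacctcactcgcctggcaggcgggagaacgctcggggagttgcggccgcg
Igf2: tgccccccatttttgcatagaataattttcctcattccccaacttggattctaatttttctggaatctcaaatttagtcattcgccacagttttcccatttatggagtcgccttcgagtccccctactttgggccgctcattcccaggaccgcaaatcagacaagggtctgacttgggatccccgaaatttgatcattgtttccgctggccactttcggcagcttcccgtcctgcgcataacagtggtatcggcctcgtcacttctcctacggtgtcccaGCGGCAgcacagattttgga
Mest: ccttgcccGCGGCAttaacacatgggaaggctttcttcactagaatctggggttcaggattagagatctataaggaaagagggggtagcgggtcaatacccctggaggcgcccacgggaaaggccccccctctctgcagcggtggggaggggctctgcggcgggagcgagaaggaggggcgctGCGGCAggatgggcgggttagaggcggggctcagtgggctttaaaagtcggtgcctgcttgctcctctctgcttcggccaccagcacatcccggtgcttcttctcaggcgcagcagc
Grb10: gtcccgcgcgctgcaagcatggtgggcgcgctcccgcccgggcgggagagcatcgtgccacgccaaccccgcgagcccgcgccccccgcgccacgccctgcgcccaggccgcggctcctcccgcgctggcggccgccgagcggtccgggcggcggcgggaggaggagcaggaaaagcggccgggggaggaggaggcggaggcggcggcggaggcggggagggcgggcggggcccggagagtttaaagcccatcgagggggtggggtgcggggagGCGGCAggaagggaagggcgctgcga
Meg3: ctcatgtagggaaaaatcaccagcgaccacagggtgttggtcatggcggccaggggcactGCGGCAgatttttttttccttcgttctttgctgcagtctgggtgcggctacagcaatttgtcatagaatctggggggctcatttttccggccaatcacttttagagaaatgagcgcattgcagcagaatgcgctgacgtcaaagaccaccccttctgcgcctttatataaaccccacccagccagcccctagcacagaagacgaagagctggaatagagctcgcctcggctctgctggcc
Peg3: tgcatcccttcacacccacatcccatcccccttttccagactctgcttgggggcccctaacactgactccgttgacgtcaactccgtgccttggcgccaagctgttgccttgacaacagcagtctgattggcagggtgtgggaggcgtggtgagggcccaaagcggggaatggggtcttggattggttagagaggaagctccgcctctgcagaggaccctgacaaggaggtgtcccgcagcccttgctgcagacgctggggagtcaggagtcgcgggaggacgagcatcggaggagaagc

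RefSeq windows were at hand for 31 of the 40 imprinted genes, 49 windows in all. The hexamer occurred on either strand in 10 of these (20.4%), belonging to 9 genes, against 11.6% of all 32851 windows in the table. Among the 14 windows of 7 genes past the threshold it occurred in 6, belonging to 5 genes, Plagl1, Igf2, Mest, Grb10 and Meg3, and the Mest window printed above held it at 2 positions. A second Mest window among the 6 overlaps this one almost wholly. Of these 5 genes, 2 rose and 3 fell. The windows of imprinted genes held a median of 16 CpG dinucleotides against 7 over all windows, and the hexamer itself contains CpG. Over the 14 windows of genes past the threshold the median was 13.5 and the range 1 to 45, the highest being the Grb10 window printed above, whose other window had 9. Sequences recognised by the TCF and LEF partners of β-catenin were searched as CTTTGAA, then as CTTTGAT, then as CTTTGTT and then as CTTTGTA on both strands. They occurred in 2 of the 49 windows (4.08%) against 16.9% of all windows, and in 0 of the 14 windows of genes past the threshold. These sequences contain no CpG, and base composition was not matched. Peg10, Sgce, Cdkn1c and Impact passed but had no window. Whether such sites are lacking in these genes was not tested.

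Plagl1 (probe set 10361771), a paternally expressed zinc finger transcription factor that restrains proliferation and is known to regulate other imprinted genes, had the largest difference of the 35 genes. Its log2 levels were 7.61, 7.47 and 7.67 on the CHIR99021 arrays and 6.04, 5.94 and 5.89 on the XAV939 arrays. The lowest CHIR99021 array stood above the highest XAV939 array by far more than the spread within either treatment, which was 0.10 and 0.07 (SD, n = 3). The gene rose 3.08-fold, a log2 difference of 1.62 ± 0.07 (SE) with a limma adjusted p of 2.98e-07. With each array left out in turn the difference lay between 1.58 and 1.68.

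The relatives of Plagl1 that are not known as imprinted in the mouse differed far less. Plagl2 read 7.44, 7.34 and 7.34 with CHIR99021 and 7.23, 7.18 and 7.02 with XAV939, a difference of 0.23 ± 0.06 that did not pass (adjusted p = 0.0504). It passed under 6 of the 17 alternatives, among them the fit without XAV939 replicate 1 (0.026) and that with arrays centred on their medians (0.044). Plag1, an oncogene of salivary gland tumours, read 5.35, 5.31 and 5.54 against 5.45, 5.76 and 5.70, a difference of -0.23 ± 0.09 (adjusted p = 0.148). Its values overlapped between the treatments, and without XAV939 replicate 1 it was lower at an adjusted p of 0.0224. The imprinted genes Igf2, Cdkn1c and Dlk1 are known as targets of Plagl1. Here Igf2 was higher, Cdkn1c lower and Dlk1 not past the threshold.

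**Figure D3:**
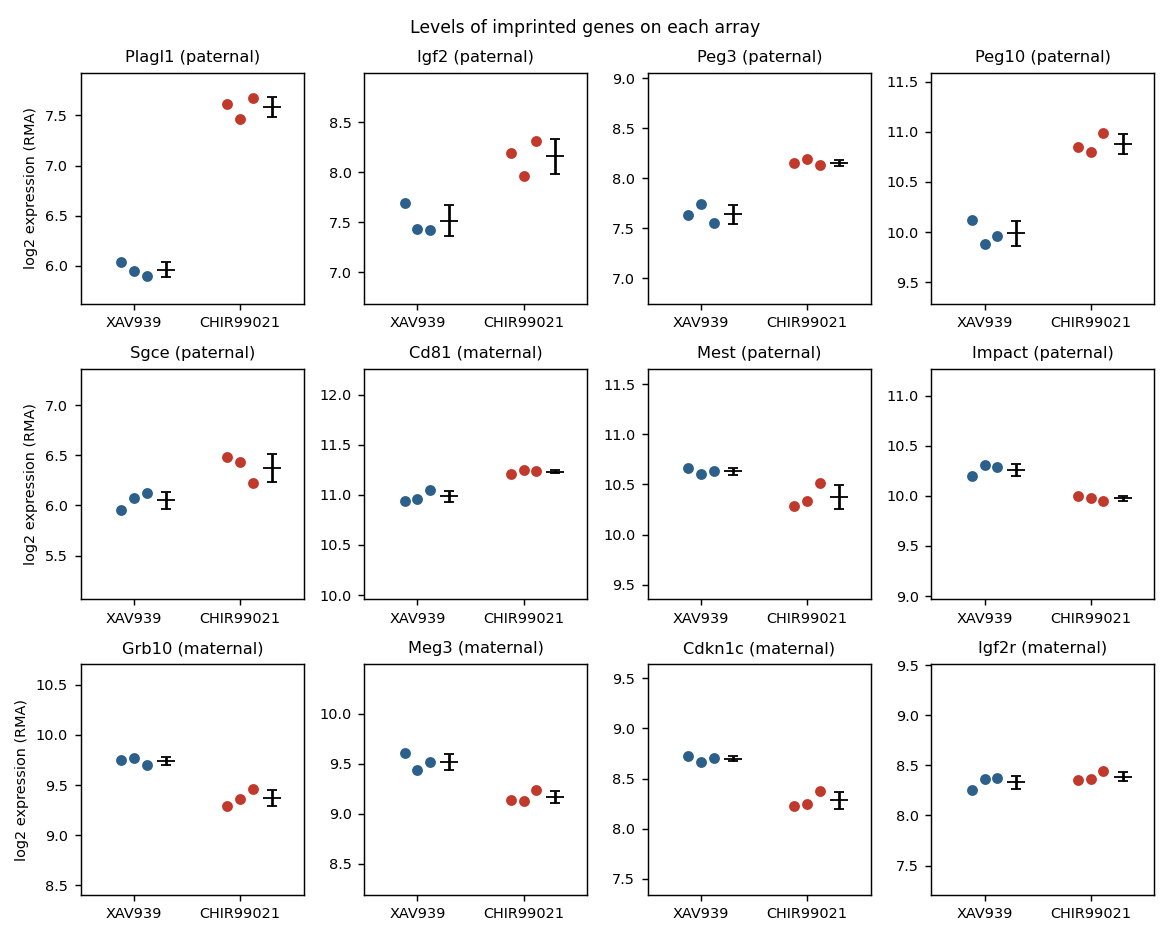
Log2 expression after RMA (vertical axes, each spanning the same range) on the 3 XAV939 arrays (blue) and the 3 CHIR99021 arrays (red) for the 11 imprinted genes past the threshold and Igf2r, with the expressed parental copy in brackets. Black marks show the mean and SD of 3 arrays, and in all panels but Igf2r the treatments do not overlap.

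Igf2, the paternally expressed fetal growth factor, rose with CHIR99021. On the arrays it read 8.19, 7.97 and 8.31 with CHIR99021 and 7.69, 7.43 and 7.42 with XAV939. XAV939 replicate 1 was the highest of its treatment and still lay under every CHIR99021 array. The rise was 1.56-fold, 0.64 ± 0.10 (SE) with a limma adjusted p of 0.00172, and its spread was the widest of the genes that passed, at SDs of 0.18 and 0.15 (n = 3). Ordinary least squares, which does not share the variance across genes, gave an adjusted p of 0.121. Igf2r, the maternally expressed receptor that carries Igf2 to the lysosome for degradation, read 8.36, 8.37 and 8.44 against 8.26, 8.36 and 8.37. These values overlapped, and the difference of 0.06 (95% confidence interval -0.07 to 0.18) was not past the threshold (adjusted p = 0.661).

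The wider insulin-like growth factor system moved in parts. Of 14 measured genes for its other ligands, receptors, adaptors and binding proteins, 3 rose, 1 fell and 10 did not pass. The share past the threshold was 28.6%, against 9.65% of all genes and 15.3% of genes at or above the median level. Igfbp4, a secreted binding protein that restrains IGF action, rose 2.19-fold, from 6.92 to 8.06 (1.13 ± 0.07, adjusted p = 5.85e-06). Irs1, the adaptor below the insulin and IGF receptors, rose by 0.34 ± 0.07, a value that dropped to 0.20 with the mean of its probe sets, where it did not pass (adjusted p = 0.0552). Igfbp6, a binding protein that prefers Igf2, rose by 0.28 ± 0.06, a call that ended on leaving out CHIR99021 replicate 2 (0.0616) or XAV939 replicate 3 (0.0511). Igfbp3, the main carrier of IGFs in serum, fell by 0.53.

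Peg10, a paternally expressed gene derived from a retrotransposon and needed for the placenta, had the next largest rise after Plagl1. Its levels were 10.85, 10.80 and 10.99 with CHIR99021 against 10.12, 9.88 and 9.96 with XAV939. All CHIR99021 arrays lay above all XAV939 arrays, with a 1.86-fold rise of 0.89 ± 0.08 (SE, limma adjusted p = 3.35e-05). Sgce, encoding ε-sarcoglycan, is paternally expressed and lies next to Peg10, with the starts of these genes head to head. It read 6.48, 6.43 and 6.22 against 5.95, 6.08 and 6.12. The treatments were separated by a narrow gap between CHIR99021 replicate 3 and XAV939 replicate 3, and the rise was 0.33 ± 0.08 (adjusted p = 0.0218). Sgce lost its call when any of 4 arrays was left out: CHIR99021 replicate 1 (0.0964), CHIR99021 replicate 2 (0.0998), XAV939 replicate 1 (0.0543) and XAV939 replicate 2 (0.0515).

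The other genes of the Peg10 cluster did not rise. Ppp1r9a, a neuronal actin-binding scaffold, differed by -0.12 ± 0.05 (adjusted p = 0.224) and Asb4, a subunit of ubiquitin ligases, by -0.03 ± 0.06, and both are maternally expressed. Of the further imprinted genes of this cluster, Calcr, the calcitonin receptor gene, fell by 0.43 (adjusted p = 5.99e-04) at a low level of 4.68 against 5.11. Casd1, Tfpi2, Pon2 and Pon3 differed by -0.08, -0.09, 0.04 and 0.03 and did not pass. In the plot of gene order, this pair of paternally expressed genes stands above 0 between Casd1 and Ppp1r9a, whose differences are negative.

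Peg3, a paternally expressed zinc finger gene with roles in growth and maternal care, read 8.15, 8.19 and 8.13 with CHIR99021 and 7.63, 7.74 and 7.55 with XAV939. The CHIR99021 arrays were close together and all above the others, and the gene rose 1.43-fold (0.51 ± 0.06, SE, adjusted p = 3.14e-04). Its neighbour Usp29, a paternally expressed deubiquitinase gene, starts in the opposite direction from the same stretch, and 263 bases of the printed Peg3 window also belong to the Usp29 window. At 0.14 ± 0.05, Usp29 was not past the threshold (adjusted p = 0.17), and all its CHIR99021 arrays were above its XAV939 arrays. Zim1, a maternally expressed zinc finger gene on the other side of Peg3, differed by -0.01 ± 0.07. The mean levels of Usp29 and Zim1, 4.50 and 4.25, lay below 4.54, the 25th percentile of all probe sets.

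**Figure D4:**
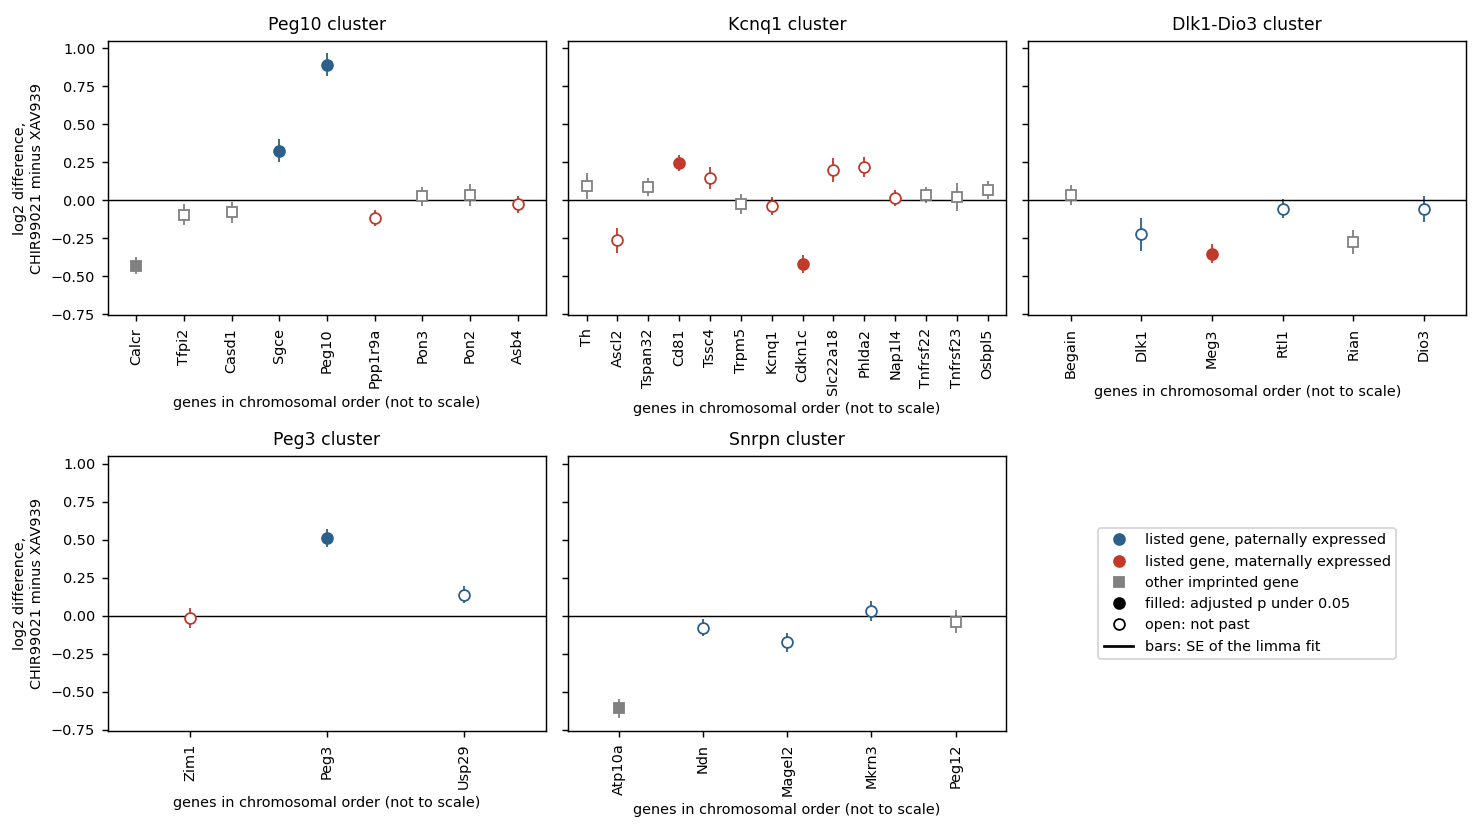
Log2 difference, CHIR99021 minus XAV939, with bars for its standard error from limma, for genes of the Peg10, Kcnq1, Dlk1-Dio3, Peg3 and Snrpn clusters in chromosomal order, not to scale. Circles are the imprinted genes of the list by expressed copy and squares are further imprinted genes, filled where the adjusted p was under 0.05, as for Sgce (0.33) and Peg10 (0.89) in the first panel.

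The Kcnq1 cluster, whose protein-coding genes are expressed from the maternal copy, moved in both directions. Of its 8 measured members, 1 rose, 1 fell and 6 did not pass. Cdkn1c, the cyclin-dependent kinase inhibitor p57 and a brake on growth, read 8.23, 8.24 and 8.37 with CHIR99021 and 8.72, 8.67 and 8.71 with XAV939. No array overlapped, and the gene fell by 0.42 (SE 0.06, limma adjusted p = 8.83e-04). Cd81, a tetraspanin membrane protein, read 11.21, 11.25 and 11.24 against 10.94, 10.96 and 11.05. It rose by 0.25 ± 0.05 (adjusted p = 0.0135), a 1.19-fold change whose call ended on leaving out CHIR99021 replicate 2 (0.0668) or XAV939 replicate 2 (0.0563).

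The other members of the cluster had differences between those of Cdkn1c and Cd81. Phlda2, which restrains growth of the placenta, differed by 0.22 ± 0.07 (adjusted p = 0.0727) and Slc22a18, an organic cation transporter-like gene, by 0.20 ± 0.08 (adjusted p = 0.182). Both were called higher without XAV939 replicate 1, at adjusted p of 0.0304 and 0.00862. Ascl2, a helix-loop-helix factor of trophoblast and also a Wnt target of intestinal stem cells, differed by -0.26 ± 0.08 (adjusted p = 0.085), with all CHIR99021 arrays below all XAV939 arrays. The potassium channel gene Kcnq1, the histone chaperone gene Nap1l4 and Tssc4, a splicing factor gene, differed by -0.04, 0.01 and 0.15 and did not pass.

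In the Dlk1-Dio3 cluster, Meg3, a maternally expressed long noncoding RNA, fell. It read 9.14, 9.13 and 9.24 with CHIR99021 and 9.60, 9.44 and 9.51 with XAV939, a difference of -0.35 ± 0.06 (SE, limma adjusted p = 0.00406) with no overlap. Rian, the noncoding RNA that follows it on the maternal copy, differed by -0.27 ± 0.08 and was not past the threshold (adjusted p = 0.0508). The paternally expressed genes did not pass. Dlk1, a membrane-bound ligand related to those of Notch, read 7.11, 6.997 and 7.06 against 7.58, 7.10 and 7.15, so that its difference of -0.22 ± 0.11 (adjusted p = 0.295) rested on XAV939 replicate 1, without which it was -0.07. Rtl1, derived from a retrotransposon, and Dio3, which inactivates thyroid hormone, differed by -0.05 and -0.06 at mean levels of 5.53 and 4.92, below the median of all probe sets.

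Of the genes that stand alone in the list, Grb10, Impact and Mest fell. Grb10, a maternally expressed adaptor that restrains insulin and IGF receptor signalling, read 9.29, 9.36 and 9.46 with CHIR99021 and 9.75, 9.77 and 9.70 with XAV939, a difference of -0.37 ± 0.06 (SE, limma adjusted p = 0.00218) without overlap. Impact, a paternally expressed inhibitor of the amino acid sensor Gcn2, read 10.00, 9.98 and 9.95 against 10.19, 10.31 and 10.28, a difference of -0.29 ± 0.05 (adjusted p = 0.00631) again without overlap. Mest, a paternally expressed hydrolase-like gene of the fetal mesoderm, read 10.28, 10.34 and 10.52 against 10.66, 10.60 and 10.63. Its highest CHIR99021 array lay just under its lowest XAV939 array, and the difference of -0.25 ± 0.07 (adjusted p = 0.0364) was the nearest to the threshold of the 11 calls. Mest kept it only when CHIR99021 replicate 3 was the array left out: leaving out CHIR99021 replicate 1 gave 0.149, CHIR99021 replicate 2 gave 0.146, and the XAV939 arrays gave 0.0712, 0.0743 and 0.101 in order of number.

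Of the 3 measured genes of the Snrpn cluster, the region of the Prader-Willi and Angelman syndromes in humans, 0 passed in limma and 1 had an unadjusted p under 0.05, as did 20.6% of all genes. Magel2, a MAGE family gene, differed by -0.17 ± 0.06 (adjusted p = 0.119) with all CHIR99021 arrays below the others. Ndn, its MAGE family neighbour, differed by -0.08 ± 0.06 and Mkrn3, a ubiquitin ligase gene, by 0.03 ± 0.07. Atp10a, a phospholipid-transporting ATPase gene listed as imprinted near these, fell by 0.61 (SE 0.07, adjusted p = 1.74e-04), from 6.91 to 6.30. It was the largest difference among the further imprinted genes.

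The remaining 7 measured members were also not past the threshold. H13, a signal peptide peptidase gene, differed by 0.18 ± 0.05 and was close to it (adjusted p = 0.0571), with all CHIR99021 arrays above all XAV939 arrays. Nnat, a membrane proteolipid gene of the nervous system, differed by -0.16 ± 0.06 (adjusted p = 0.143), again without overlap, and Blcap, whose intron holds Nnat, by 0.06 ± 0.07. Commd1, a copper and NF-κB regulator gene that hosts Zrsr1, differed by 0.14 ± 0.07. Slc38a4, an amino acid transporter gene, had a mean level of 10.87 under CHIR99021 (SD 0.03, n = 3) and of 10.90 under XAV939 (SD 0.08, n = 3), and its difference of -0.04 had a 95% confidence interval of -0.16 to 0.09. Dcn, the matrix proteoglycan decorin, and Rasgrf1, a Ras exchange factor gene of neurons, differed by 0.03 and 0.01 at mean levels of 4.42 and 4.94, below the median of all probe sets. Blcap, Commd1, Dcn, Rasgrf1 and Slc38a4 each had overlapping values.

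A second list held 44 further imprinted genes, of which 37 were measured. Of these, 2 rose, 5 fell and 30 did not pass (18.9% past, against 9.65% of all genes), with a median difference of 0.014. Atp10a and Calcr were followed by Sfmbt2, a Polycomb-related gene needed in trophoblast, which fell by 0.40, Gatm, the first enzyme of creatine synthesis, which fell by 0.36, and Herc3, a ubiquitin ligase gene, which fell by 0.31. Cobl, an actin nucleator gene beside Grb10, rose by 0.26, as did Airn, the noncoding RNA that overlaps Igf2r, at a level of 4.96 against 4.70. Without CHIR99021 replicate 2 the calls of Cobl (adjusted p = 0.0598), Herc3 (0.0603) and Gatm (0.112) were lost. Without CHIR99021 replicate 3 those of Cobl (0.059) and Airn (0.143) were lost, and without CHIR99021 replicate 1 those of Airn (0.129) and Gatm (0.136). Without XAV939 replicate 1 those of Airn (0.0907) and Gatm (0.084) were lost, without replicate 2 those of Cobl (0.0656) and Airn (0.138), and without replicate 3 those of Cobl (0.0652) and Gatm (0.122).

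Among 22 genes for regulators of imprints, 1 rose, 7 fell and 14 did not pass. The list mixes factors that set or maintain DNA methylation with others of different action. The share past the threshold was 36.4%, against 9.65% of all genes. It was 15.3% of genes at or above the median level, where 21 of the 22 lay. Dnmt3a, Dnmt3b and Dnmt3l, which act in the setting of new DNA methylation, were lower 2.84-fold, 1.95-fold and 1.55-fold. Tet1, which oxidises methylcytosine, fell by 0.39. Of the factors that maintain imprints, Zfp57 rose by 0.23 ± 0.06 (adjusted p = 0.0265), and its co-repressor Trim28 fell by 0.21 (0.0329) and the remodeller Hells by 0.30 (0.03). Dnmt1, the maintenance methyltransferase, differed by -0.10 and Uhrf1, which recruits it, by -0.08, and neither passed. Leaving out 1 array ended the Zfp57 call for every array but XAV939 replicate 2 (0.0521 to 0.101), the Trim28 call for every array but CHIR99021 replicate 3 (0.0585 to 0.154) and the Hells call for every array but XAV939 replicate 1 (0.0832 to 0.115). With the replicate number as a block, Zfp57 (0.0509) and Trim28 (0.0761) did not pass either. DNA methylation was not measured.

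For the 11 genes past the threshold, the nearest measured genes on either side in the RefSeq gene order were 22 different genes, of which 9 stood in neither imprinted list. Of these 9, 0 passed in limma and 0 had an unadjusted p under 0.05. Over all genes the shares were 9.65% and 20.6%, and with 9 genes these counts do not set the neighbours apart from other genes. Beside Plagl1 stood Sf3b5, a splicing factor subunit gene, at 0.11 ± 0.06 and Zc2hc1b at 0.04 ± 0.06. The microRNA genes Mir483, within Igf2, and Mir335, within Mest, differed by -0.02 and 0.01, against 0.64 and -0.25 for their hosts. Over the arrays Mir483 read 6.26 to 6.46 and Mir335 4.46 to 4.65. The other neighbours outside the lists were Mrpl23 near Igf2 (-0.13), Cep41 near Mest (0.02), R74862 near Cd81 (0.04), and Osbpl1a (-0.02) and Hrh4 (0.02) on either side of Impact. Zc2hc1b read 4.31 to 4.47, R74862 4.61 to 4.81 and Hrh4 3.76 to 3.85. Like Mir335, these lay below 5.68, the median of all probe sets. Whether such weak genes were detected was not tested, so their small differences do not show that their transcripts were unchanged.

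Several imprinted genes are abundant in fibroblasts and in extraembryonic cells, and markers of these were read on the same arrays. Of 23 measured fibroblast genes, 7 rose and 1, Mmp2, fell (34.8% past). This share and those below stand against 9.65% of all genes and 15.3% of genes at or above the median level. Over the fibroblast list the mean log2 level was 6.26 to 6.30 on the CHIR99021 arrays and 6.07 to 6.16 on the XAV939 arrays. Col1a1 rose by 1.05 and Pdgfrb by 0.59. Among those that did not pass were Col3a1 (0.10), Prrx1 (0.10), Col6a1 (0.006), Thy1 (-0.08) and Twist1 (-0.19). Lum, Postn and Fap lay below the 25th percentile of all probe sets, as did Dcn, itself an imprinted gene abundant in fibroblasts. Of 10 trophoblast genes, 4 rose (Cdx2, Eomes, Krt7 and Tfap2c), 0 fell and 6 did not pass (40.0% past). The latter included Gata3 (0.26), Hand1 (0.07), Elf5 (0.01) and Plac1 (0.01). List means were 6.12 to 6.21 against 5.69 to 5.78, and the placental markers Tpbpa and Psg17 were below the 25th percentile. Of 13 primitive endoderm genes, 1 rose and 1 fell (15.4% past), with list means of 5.70 to 5.72 against 5.64 to 5.75. Of 9 stem cell genes, 4 rose (Nanog, Esrrb, Klf4 and Zfp42) and 2 fell (Utf1 and Tdgf1), or 66.7% past. List means were 10.68 to 10.77 against 10.63 to 10.66. The part of other cell types in the differences of imprinted genes was not tested, and in RNA of whole cultures a change in the number of cells of a type and in RNA per cell cannot be told apart.

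Array medians lay between 5.67 and 5.71, and correlations across genes were 0.997 to 0.999 within a treatment and 0.994 to 0.995 between treatments. XAV939 replicate 1 stood apart on the second principal component, and limma's array weights were lowest for it (0.384) and for CHIR99021 replicate 3 (0.626). Without both arrays, 8 imprinted genes were higher and 5 lower.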

How the data were processed

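Total RNA of 6 samples was measured on 1-colour Affymetrix arrays. The deposited log2 values per probe set were made by the authors with RMA, which the submitters' processing notes name. Its version and the genome build are not stated in the labels or file headers. The method corrects background, normalises by quantiles and summarises probes, which tends to compress differences of weak genes. The number of arrays limits the precision.

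Of 34760 probe sets, 21640 were assigned to 1 gene by the platform annotation, 1321 to several (not used) and 11799 to none. The single-gene probe set of highest mean represented each of 19937 genes. CHIR99021 was compared with XAV939 with limma 3.58.1 in R 4.3.3 (lmFit and eBayes, default settings, no filter), with Benjamini-Hochberg adjustment over all genes, a threshold of 0.05 and 3 arrays per treatment. The fit had 4 residual and 6.15 prior degrees of freedom. SE and 95% confidence intervals come from this fit. The procedure was tested on simulated data with independent normal noise, SDs shuffled across genes and no deviating array. That test does not measure how reliable the calls above are. With 3 arrays on each side, exact permutation reaches 0.1 at best and was not used. The alternatives changed scaling, filter, probe set, variance model, weights, threshold, replicate block and arrays. Scanner files were not analysed here, and detection was not called.

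The members, their parental classes and all gene lists were chosen with earlier results of these data known. The text names every member, gives array values for those past the threshold and for Plagl1, Igf2, Igf2r and Dlk1, up to 6 genes with the smallest p per direction from each further list, the relatives of Plagl1, and the neighbours of members past the threshold. Chosen after their values were seen were Rian, Casd1, Tfpi2, Pon2, Pon3, Dnmt1, Uhrf1 and the named cell type markers. Promoter sequences and gene order are from RefSeq (GRCm38.p6). Plots were drawn with matplotlib 3.10.9.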

Additional observations from a re-analysis of the deposited data

How the results depend on the processing

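Of the 11 calls, 5 (Plagl1, Peg3, Peg10, Cdkn1c and Impact) held in all 17 alternatives. Igf2, Grb10 and Meg3 were lost with ordinary least squares alone (adjusted p of 0.121, 0.0584 and 0.0805), and Mest, Cd81 and Sgce under several. With ordinary least squares 3 imprinted genes were higher and 2 lower, and of the further imprinted genes 0 and 2. The further list had 0 higher and 3 lower with all probe sets tested and at a threshold of 0.01, 1 higher with weak genes left out, and 8 lower with array weights. Leaving out 1 array gave 4 to 7 imprinted genes higher and 4 to 5 lower, and 0 to 1 and 3 to 6 of the further list. The medians of imprinted genes lay near 0 throughout: -0.00124 to 0.0155 over all, -0.0353 to 0.0086 for paternally and 0.0131 to 0.0363 for maternally expressed genes with 1 array left out. With weak genes left out the median was 0.0357 over all and 0.0575 for maternally expressed genes. Without XAV939 replicate 1 and CHIR99021 replicate 3 together, an alternative chosen after seeing the data, the median was 0.00207 over all and -0.00853 for paternally expressed genes, and 1 gene of the further list was higher. Signs turned for members that were not past the threshold and lay near 0. With array weights these were Dio3 (0.00497), Nap1l4 (-0.0123), Mkrn3 (-0.0182) and Zim1 (0.0227). Without both arrays they were Igf2r (-0.00562), Dio3 (0.0274), Kcnq1 (0.00207), Nap1l4 (-0.0154), Mkrn3 (-0.0341), Zim1 (0.0358) and Asb4 (0.0171). With 1 array left out the ranges were -0.0888 to 0.0086 for Rtl1, -0.136 to 0.0388 for Dio3, -0.0734 to 0.00416 for Kcnq1, -0.0106 to 0.0376 for Nap1l4, -0.0412 to 0.0821 for Mkrn3, -0.0709 to 0.0459 for Zim1, -0.0654 to 0.0155 for Asb4, -0.00786 to 0.0296 for Rasgrf1, -0.000187 to 0.0576 for Dcn and -0.0781 to 2.05e-05 for Slc38a4. The cause was not tested. Replicate numbers are shared by the treatments, and the labels do not state whether they pair the arrays. Deviations of same-numbered arrays correlated at -0.0957, 0.0602 and -0.143. These values show no clear shared effect of the number but do not settle whether the arrays were paired. With the replicate block, 5 imprinted genes were higher and 4 lower, Sgce (0.0565) and Mest (0.0619) being the members lost, and the regulators Zfp57 (0.0509) and Trim28 (0.0761) lost their calls. Without scanner files, signal over background was not measured, and 7 members lay below the median level.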

Other observations

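Between Meg3 and Dio3 in the RefSeq gene order lie many microRNA genes processed from the maternal noncoding transcripts, and 40 of them were tested. In limma 1 fell (Mir377, -0.32 ± 0.08, adjusted p = 0.0323), 0 rose, and 11 had an unadjusted p under 0.05. Over all genes 9.65% passed and 20.6% had an unadjusted p under 0.05, so that these counts do not set the microRNA genes apart from other genes. The differences ranged from -0.39 to 0.14 with a median of -0.105, and 32 of the 40 were negative. Over all genes 9369 of 19937 were negative, with a median of 0.0066. Meg3 differed by -0.35 and Rian by -0.27. Of the 40 probe sets, 24 had a mean level under 5.68, the median over the array, Mir377 among them at 4.85. The set was chosen after the Meg3 value was seen. It was not tested as a set, and its members share a transcript and are not independent.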
